A study of Bos taurus with 12 samples.

Results

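The miRNAs bta-miR-33a and bta-miR-33b were examined in small RNA libraries of mammary biopsies from 12 multiparous, mastitis-free Chinese Holstein cows. They are 2 of 388 mature miRNAs measured and were found by name, with 1 precursor entry each. The libraries formed 4 groups of 3, and each library came from a different cow. HP and LP were cows with high and low milk protein percentage, sampled in lactation, and HD and LD were cows with high and low milk protein percentage, sampled in the non-lactating period before calving. The phenotype was the protein percentage of the previous lactation in herd records. The labels name no treatment, and no cow was sampled in both stages, so the stages were compared between different cows. Every direction between high and low protein percentage rests on the group names of the columns, and the table holds no protein percentage to check them. The paper gives its up and down miRNAs as LP relative to HP and LD relative to HD. For all miRNAs it lists in lactation, the columns gave the opposite sign. An example is miR-146b, with a log2 fold change of LP over HP of 1.59 here. The sign was also opposite for most of those it lists in the non-lactating period. Which is right cannot be told from the values, so the directions below are those of the column names. The pair was chosen by its HD vs LD values in earlier results of these data, in which miR-33b was among the miRNAs with the smallest p-values. The HD vs LD values of both miRNAs are therefore given as a description without a test.

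miRNAs are short RNAs that pair with messenger RNAs through their seed, the bases near the 5′ end, and repress them. The miR-33 genes lie in introns of the genes for the sterol regulatory element-binding proteins, transcription factors that switch on cholesterol and fatty acid synthesis. miR-33a belongs to SREBF2, which mainly serves cholesterol synthesis and uptake, and miR-33b to SREBF1, which mainly serves fatty acid and triglyceride synthesis. Both mature miRNAs share a seed and are known to repress ABCA1, a transporter that moves cholesterol out of cells, as well as genes of fatty acid oxidation. SREBF1 is known as a regulator of milk fat synthesis in the ruminant mammary gland. Cattle have both miRNAs, whereas mice and rats lack miR-33b. In the RefSeq gene table of assembly ARS-UCD2.0, MIR33A lay within the span of SREBF2 and MIR33B within the span of SREBF1, and each was the single miRNA gene in its host. Such a position was common, since 228 of the 379 precursors that could be matched to that table (60.2%) lay within a protein-coding gene. Messenger RNA of the host genes was not analysed here.

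The total of reads over the miRNA entries of a library followed from the value of a single read, since its low values lay on a grid. This total ranged from about 6026620 to 13373813 reads in lactation (median 10732360). When non-lactating it ranged from about 11047232 to 23577193 (median 21207958). The median was thus higher when non-lactating, although the ranges overlapped and the difference was not tested. This total is not the sequencing depth, since the paper reports a narrow range of clean reads over the libraries. The values are reads scaled to the total of the miRNA entries (RPM), called TPM by the authors, and 3 reads were worth between 0.127 and 0.498 TPM. Both miRNAs were above that floor in all 12 libraries. miR-33b rested on 64 to 994 reads per library and miR-33a on 43 to 347. The counting intervals given here are exact 95% Clopper-Pearson intervals, and PCR duplicates are left out of account in them, so that they describe counting error alone. The labelled tissue was checked against 7 miRNAs of mammary epithelium (miR-200a, miR-200b, miR-200c, miR-141, miR-429, miR-205 and miR-375). All 7 were present, with a summed level of 15311 to 48291 TPM, whereas miR-122, the defining miRNA of hepatocytes, was not in the table analysed here.

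miR-33b had the higher value of the pair in every library. In HD replicates 1 and 2 the 95% interval of its share in the pair's reads included an even split (49.9 to 69.2% and 46.6 to 62.2%). In HP it had 55.8, 59.6 and 77.2 TPM in replicates 1, 2 and 3, and in LP 68.6, 33.3 and 125 TPM. In HD it had 5.79, 4.13 and 5.90 TPM, and in LD 31.6, 9.25 and 8.95 TPM. Every lactation library thus exceeded every non-lactating library, although LD replicate 1 (95% interval 28.8 to 34.7 TPM) came close to LP replicate 2 (30.0 to 36.9 TPM) and their intervals overlapped. Ranked within each library among the 388 miRNAs, miR-33b stood between places 121 and 174 in lactation and between 193 and 267 in the non-lactating period.

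miR-33a had 17.8, 23.3 and 17.3 TPM in HP and 26.0, 10.2 and 37.0 TPM in LP. In HD the values were 3.89, 3.45 and 3.77 TPM, and in LD 10.9, 4.23 and 5.12 TPM. On this scale LD replicate 1 (95% interval 9.25 to 12.7 TPM) and LP replicate 2 (8.45 to 12.3 TPM) overlapped, and all other lactation libraries were above all non-lactating ones. To make libraries comparable, each was scaled by a size factor (the median ratio of its miRNAs to their geometric means), which was 1.50 in LD replicate 1 and in HD replicate 1 and between 0.764 and 1.14 in the other libraries. After that scaling the highest non-lactating value of miR-33a was 7.26 normalized TPM, in LD replicate 1, and the lowest lactation value was 9.00, in LP replicate 2.

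Ordered by group mean, both miRNAs followed LP, HP, LD and HD from high to low. For miR-33b the means were 82.8 ± 52.3 normalized TPM in LP, 63.3 ± 6.08 in HP, 14.9 ± 5.34 in LD and 4.63 ± 1.47 in HD (SD, n = 3). For miR-33a they were 26.9 ± 15.9 in LP, 19.4 ± 4.03 in HP, 6.47 ± 0.870 in LD and 3.24 ± 0.736 in HD (SD, n = 3). LP and HP overlapped for both miRNAs, whereas the libraries of HP and LD, and those of LD and HD, did not. The spread was widest in LP. There the coefficient of variation was 63.2% for miR-33b and 59.2% for miR-33a, where the median over the 344 miRNAs with a mean of at least 1 TPM was 25.6%. In HP it was 9.62% and 20.8%, where the median was 28.3%.

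**Figure D1:**
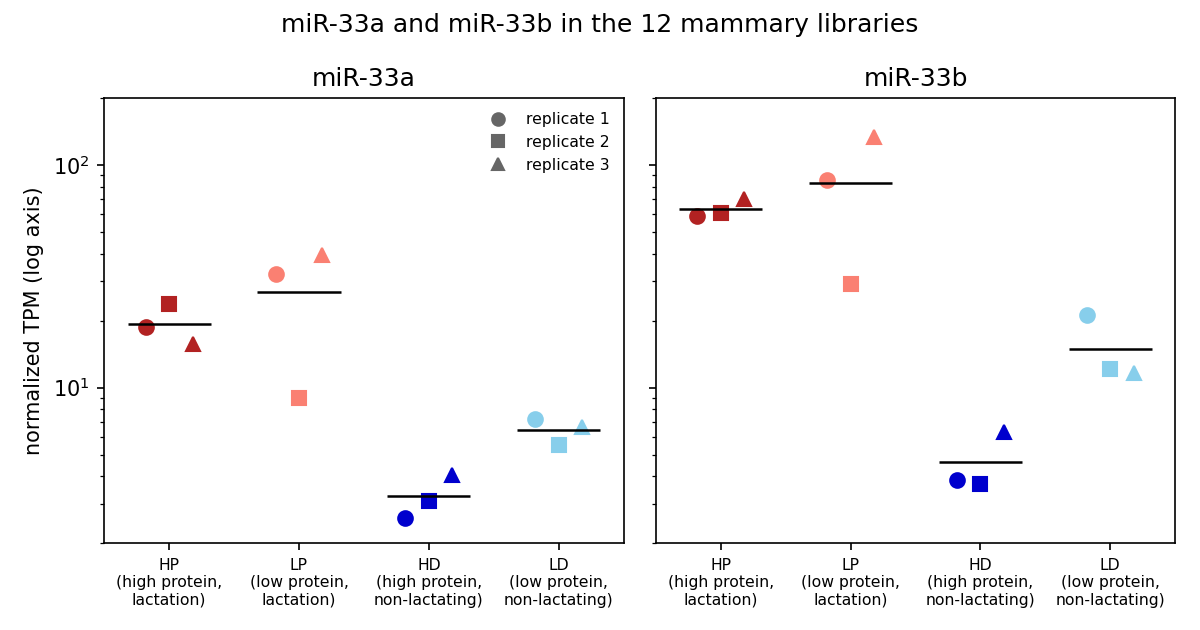
Normalized TPM (log axis) of miR-33a and miR-33b in each library by group, where a symbol is 1 library, its shape the replicate number and the bar the group mean. The lactation libraries lie between 29.3 and 134 for miR-33b and between 9.00 and 39.4 for miR-33a, above the non-lactating libraries at 3.71 to 21.1 and 2.59 to 7.26.

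Whether the pair differed between lactation and the non-lactating period was tested over all 12 libraries with limma, on log2(normalized TPM + 1) and with Benjamini-Hochberg adjustment over the 388 miRNAs. miR-33b was higher in lactation, with 73.0 ± 35.0 normalized TPM against 9.78 ± 6.64 (SD, n = 6), a ratio of means of 7.47. Its log2 fold change was 2.87 (SE 0.33, 95% interval 2.14 to 3.59, limma adjusted p = 4.74e-05). miR-33a was also higher, with 23.1 ± 11.2 against 4.86 ± 1.91 normalized TPM (SD, n = 6), a ratio of means of 4.76 and a log2 fold change of 1.97 (SE 0.32, 95% interval 1.28 to 2.66, limma adjusted p = 0.000404). The pair had been chosen on differences between HD and LD, which this comparison sets together against lactation, but the same 6 libraries enter it, so its p-values do not come from samples kept apart from the choice. For both miRNAs the normalized values of all 6 lactation libraries exceeded those of all 6 non-lactating libraries. Of the 388 miRNAs, 172 had an adjusted p-value under 0.05 in this comparison (44.3%), 86 of them higher in lactation (22.2%), and the libraries of the stages did not overlap with lactation the higher in 45 (11.6%). By size, miR-33b had the log2 fold change of rank 3 and miR-33a that of rank 19 among the 388, where the median was -0.01.

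The stage difference appeared in cows of either phenotype, given here as a description since the values of HD and LD enter it. From HD to HP, miR-33b differed by a log2 fold change of 3.54 (SE 0.47) and miR-33a by 2.26 (SE 0.45). From LD to LP the values were 2.20 (SE 0.47) and 1.68 (SE 0.45). The ratios of means were 13.7 for miR-33b and 5.98 for miR-33a between HP and HD, and 5.55 and 4.15 between LP and LD. Without any 1 of the libraries, the stage log2 fold change of miR-33b ranged from 2.66 to 3.17 and that of miR-33a from 1.80 to 2.28, with limma adjusted p-values of at most 0.00159.

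Markers of other cell types also moved between the stages. In bulk tissue, fewer cells of a type and less RNA per cell cannot be told apart. Of the 7 epithelial miRNAs, 6 were higher in lactation (limma adjusted p-value under 0.05), none was lower, and none was at 0. Their summed level was 36967 to 48291 TPM in lactation, against 15311 to 39157 TPM in non-lactating libraries. Among them miR-375 had the largest log2 fold change, 3.12 (SE 0.27, limma adjusted p = 8.41e-06), and miR-205, a miRNA of basal epithelium, had -0.08 (SE 0.19, limma adjusted p = 0.771). Both endothelial miRNAs, miR-126-3p and miR-126-5p, were higher in lactation (summed level 10665 to 16528 TPM against 4676 to 10738). Of 5 leukocyte miRNAs, miR-142-5p and miR-155 were lower in lactation (5146 to 8911 TPM against 8262 to 20486 for the sum). None of the 2 smooth muscle, 3 skeletal muscle and 3 erythroid miRNAs measured passed between the stages. The part of endothelial cells and leukocytes in the result was not tested.

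For the epithelium, the levels were also expressed relative to the summed epithelial miRNAs of the same library. miR-141 and miR-205 made up most of that sum, with means of 13729 and 11458 TPM over the 12 libraries, so the scale rests mainly on them. On the RPM scale with the epithelial sum as the total, miR-33b then had 901 to 2752 in lactation, against 148 to 1172 in non-lactating libraries, and miR-33a 277 to 811 and 99.3 to 404. The stages overlapped on this scale for both, with LD replicate 1 above LP replicate 2. With this scaling in place of size factors, an alternative chosen after the data were seen, the stage log2 fold change was 2.09 for miR-33b (SE 0.37, limma adjusted p = 0.000312) and 1.22 for miR-33a (SE 0.32, limma adjusted p = 0.00502).

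**Figure D2:**
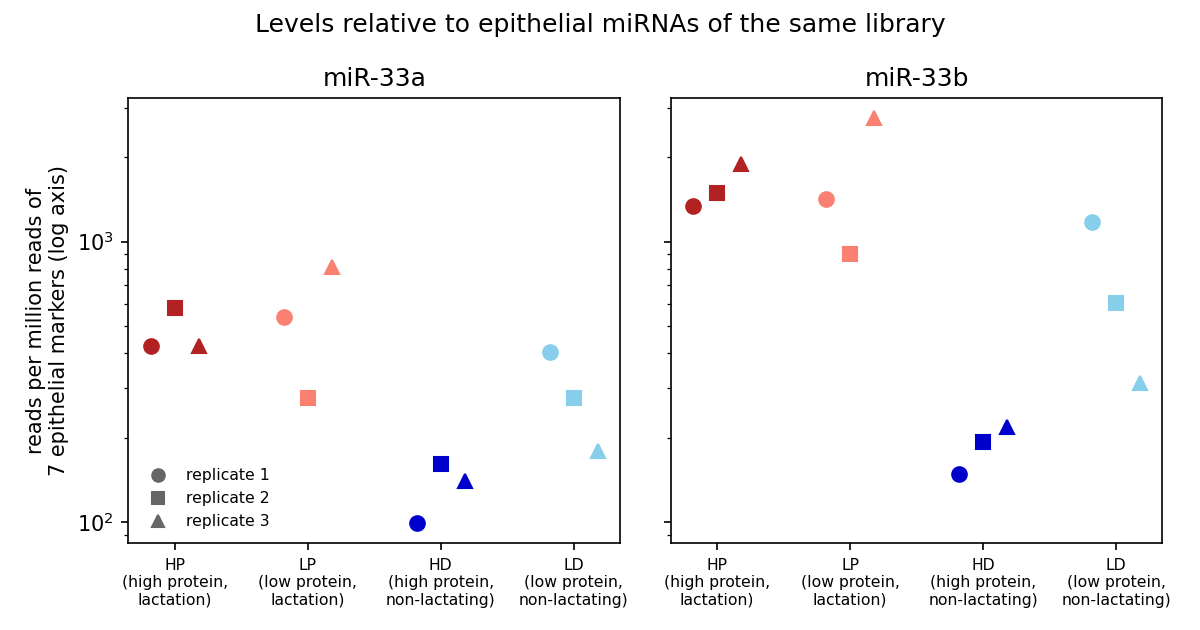
Levels of miR-33a and miR-33b scaled to the summed reads of 7 epithelial miRNAs of the same library (RPM of that sum, log axis), by group, where a symbol is 1 library. The 3 HD libraries are the lowest for both miRNAs (148 to 219 for miR-33b), and LD replicate 1 reaches 1172 for miR-33b, above LP replicate 2 at 901.

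How the pair divided between its members was taken from the reads of the same library, which no scaling between libraries can move. miR-33b held 75.9%, 72.0% and 81.7% of the pair's reads in HP replicates 1, 2 and 3, and 72.6%, 76.5% and 77.2% in LP. In HD its share was 59.8%, 54.5% and 61.0%, and in LD 74.4%, 68.6% and 63.6%. The lowest share was that of HD replicate 2 (95% interval 46.6 to 62.2%) and the highest that of HP replicate 3 (79.1 to 84.1%). The log2 ratio of miR-33a to miR-33b averaged -1.67 ± 0.29 over the lactation libraries and -0.83 ± 0.45 over the non-lactating ones (SD, n = 6), a difference of -0.85 (SE 0.22, two-sided exact permutation test, p = 0.00649, 0.0130 adjusted over 2 tests of the ratio). In 5 of the 6 non-lactating libraries the ratio was above that of every lactation library, the exception being LD replicate 1. This test, too, includes the HD and LD libraries on which the pair was chosen. Between HP and LP the ratio was -1.72 ± 0.40 and -1.62 ± 0.19 (SD, n = 3), and the difference of 0.10 (SE 0.26) did not exceed the spread (two-sided exact permutation test, p = 0.9, where the smallest possible is 0.1; 0.9 adjusted over the 2 tests). In HD and LD it was -0.49 ± 0.21 and -1.16 ± 0.37 (SD, n = 3). The mature sequences of the pair are near-identical, and how a read that matches both was counted is not given in the sources used here.

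**Figure D3:**
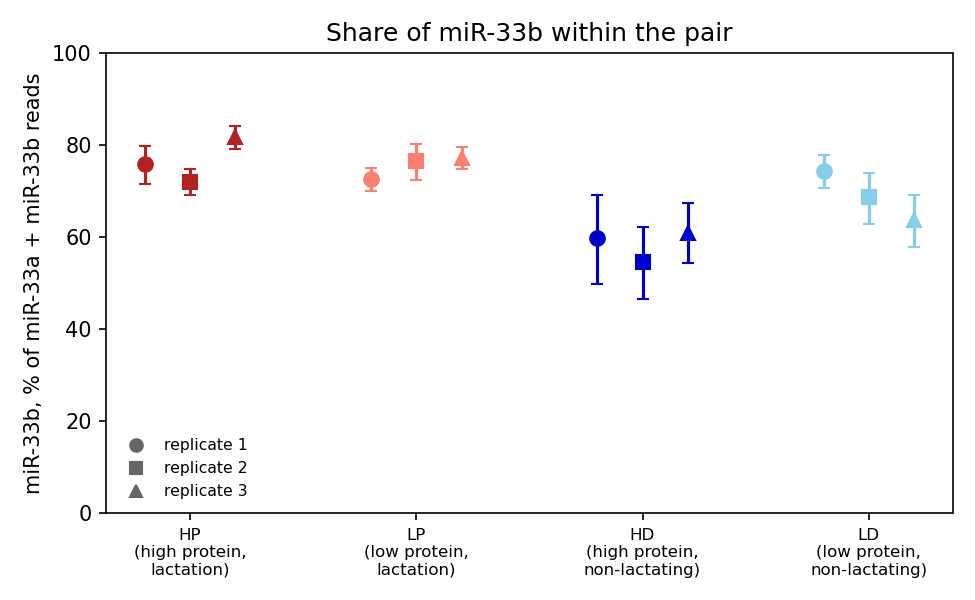
Share of miR-33b in the reads of miR-33a and miR-33b together (percent, axis from 0 to 100), by group, where a symbol is 1 library and the bar its exact 95% counting interval. The 6 lactation libraries lie between 72.0% and 81.7% and the 3 HD libraries between 54.5% and 61.0%.

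Whether high and low milk protein percentage differed in lactation was tested over the 6 libraries of HP and LP, with size factors computed within the stage. The HP libraries averaged 62.9 ± 6.47 normalized TPM of miR-33b and the LP libraries 78.4 ± 47.7 (SD, n = 3), a log2 fold change of LP over HP of 0.09 (SE 0.47, 95% interval -0.97 to 1.15, limma adjusted p = 0.949). For miR-33a the values were 19.2 ± 3.90 and 25.5 ± 14.6 (SD, n = 3), with a log2 fold change of 0.19 (SE 0.50, 95% interval -0.92 to 1.30, limma adjusted p = 0.922). The 3 LP libraries enclosed the 3 HP libraries for both miRNAs, with LP replicate 2 the lowest and LP replicate 3 the highest of the 6. DE miRNAs, which by the study's definition have a log2 fold change beyond 0.8 in either direction and a p-value under 0.05 before adjustment, numbered 39 of 388 in this comparison (10.1%), and neither miR-33a nor miR-33b was among them. The intervals leave room for a change of about the DE threshold in either direction, so the data do not show that the phenotypes were alike. The direction rested on single libraries. Without LP replicate 2 the log2 fold changes were 0.67 for miR-33b (limma adjusted p = 0.334) and 0.78 for miR-33a (limma adjusted p = 0.302), and without LP replicate 3 they were -0.35 and -0.17 (limma adjusted p = 0.883 and 0.934).

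Between HD and LD, the contrast in which miR-33b had been noticed, the pair is described without a test. With size factors computed within the stage, the HD libraries averaged 4.92 ± 1.53 normalized TPM of miR-33b and the LD libraries 15.4 ± 5.10 (SD, n = 3), a ratio of means of 3.13 and a log2 fold change of LD over HD of 1.46 (SE 0.36). For miR-33a the averages were 3.44 ± 0.732 and 6.70 ± 0.726 (SD, n = 3), a ratio of means of 1.95 and a log2 fold change of 0.80 (SE 0.28). The 3 libraries labelled LD exceeded the 3 labelled HD for both miRNAs. Over all miRNAs, all LD libraries exceeded all HD libraries in 17 of 388 (4.38%), and 13 of 388 were DE (3.35%). Without LD replicate 1, the library with the highest value of both, the log2 fold changes were 1.21 for miR-33b and 0.74 for miR-33a. On the TPM scale as deposited, without size factors, they were 1.26 (SE 0.57) and 0.62 (SE 0.45). Erythroid miRNAs (miR-144, miR-451 and miR-486) had a summed level of 413 to 773 TPM in the libraries labelled HD. In those labelled LD it was 680 to 6127 TPM, so the ranges overlapped. The 6127 TPM was a single library, in which all 3 had their highest non-lactating values (103, 2607 and 3416 TPM). Their log2 fold changes of LD over HD were 2.18 (SE 1.13), 1.57 (SE 1.2) and 1.74 (SE 0.91), with a median of 1.74. Leukocyte miRNAs had 8262 to 10428 TPM in the libraries labelled HD and 10543 to 20486 TPM in those labelled LD. Most of that sum was miR-142-5p (mean 7903 TPM over the 12 libraries). The log2 fold changes of LD over HD were 0.81 (SE 0.29) for miR-142-5p, 1.11 (SE 0.38) for miR-142-3p and 0.45 (SE 0.34) for miR-155. For miR-150 and miR-223 they were 0.02 (SE 0.43) and 0.03 (SE 0.54). Epithelial miRNAs had 21351 to 39157 TPM in the libraries labelled HD and 15311 to 28505 TPM in those labelled LD, with a median log2 fold change of -0.38. The median log2 fold change of LD over HD was 0.73 for the endothelial, 0.36 for the smooth muscle and 0.41 for the skeletal muscle miRNAs. None of these markers was at 0, and their part in the values of miR-33b and miR-33a was not tested.

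**Figure D4:**
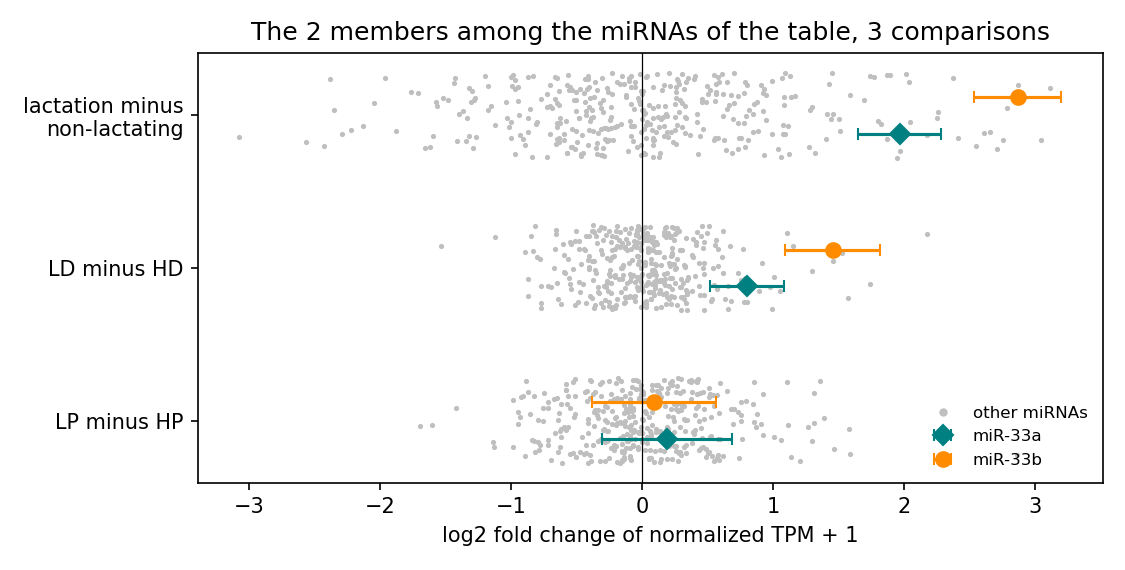
Log2 fold changes of normalized TPM + 1 in 3 comparisons, with miR-33a (diamond) and miR-33b (circle) as estimate and standard error and the other miRNAs of the table as grey points spread vertically for legibility. The pair lies at 1.97 and 2.87 between the stages, at 0.80 and 1.46 for LD minus HD, and near 0 (0.19 and 0.09) for LP minus HP.

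The levels of the members were also related to each other across cows. Since the stages form separate clusters, the relation was computed within each. Over the 6 lactation libraries, Pearson's r of log2(normalized TPM + 1) was 0.926 (exact permutation p = 0.0167, 0.0333 adjusted over the 2 measures) and Spearman's rho 0.829 (exact permutation p = 0.0583, 0.0583 adjusted). Without LP replicates 2 and 3, the 2 libraries farthest from the median of miR-33a, r was 0.581 over 4 libraries, so the relation in lactation rested on them. Over the 6 non-lactating libraries r was 0.964 and rho 0.886, given without a test since HD and LD enter them, and r was 0.964 without HD replicate 1 and LD replicate 1. HD and LD did not overlap for either miRNA, also without these libraries. Both values of r therefore include the difference between HD and LD, and do not show a relation between cows of the same group.

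**Figure D5:**
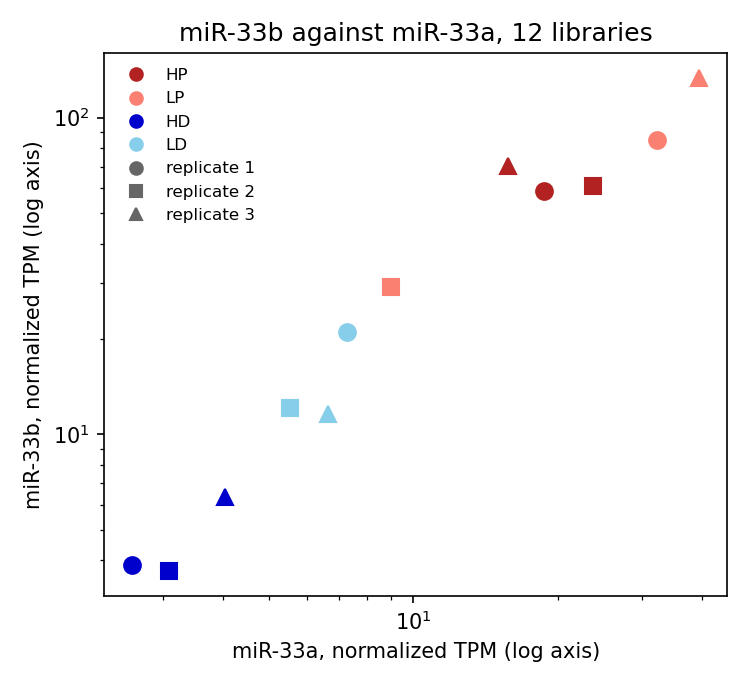
Normalized TPM of miR-33b against miR-33a (both axes log), where a symbol is 1 library, its colour the group and its shape the replicate number. The 12 libraries run from HD at the lower left (miR-33a from 2.59, miR-33b from 3.71) to LP replicate 3 at the upper right (39.4 and 134).

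To find the miRNAs whose pattern was most like the pair's, the mean of each group was removed and Pearson's r computed over the 12 libraries, as a description. The spread within groups was widest in LP (coefficient of variation 59.2% for miR-33a and 63.2% for miR-33b), so these values of r rest mainly on the LP libraries. For miR-33a the closest was miR-33b (r = 0.888), followed by miR-30e-5p (0.879), miR-148a (0.850), miR-10166-5p (0.847) and miR-12036 (0.830). For miR-33b they were miR-10166-5p (r = 0.925), miR-33a (0.888), miR-148a (0.818), miR-12036 (0.796) and miR-12044 (0.788). The median r of all miRNAs was 0.042 with miR-33a and 0.016 with miR-33b. miR-12036 and miR-12044 had means of 0.679 and 0.671 TPM, near the limit of detection. With the group means kept, each member was the closest to the other of all miRNAs (r = 0.976). miR-148a came next for both (0.961 with miR-33a and 0.969 with miR-33b), and the third place was held by miR-10166-5p for miR-33a (0.953) and by miR-29b for miR-33b (0.960). The points share their libraries and size factors, and with the group means kept r includes the differences between the stages and between HD and LD. How reads matching both members were counted is not given, which also limits the reading of their r with each other. miR-148a, an abundant miRNA of the lactating gland, had 154416 ± 29355 TPM in lactation, against 25845 ± 13789 TPM in non-lactating libraries (SD, n = 6), and its log2 fold change of 2.79 (SE 0.26, limma adjusted p = 1.06e-05) was close to that of miR-33b. miR-10166-5p had 4.54 to 14.1 TPM in lactation, against 0.70 to 5.79 TPM in non-lactating libraries, with a log2 fold change of 2.04 (SE 0.33, limma adjusted p = 0.000404).

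The pair was set beside 27 other miRNAs known to act on ABCA1, the LDL receptor or the SREBF genes, or to be driven by the sterol regulatory element-binding proteins. Of these, 23 were in the table. Between the stages 3 were higher in lactation, 5 were lower and 15 did not pass (limma adjusted p-value under 0.05), with a median log2 fold change of -0.11, where the median of all miRNAs was -0.01. Among all 388 miRNAs, 44.3% passed and 22.2% were higher in lactation. The 3 higher were miR-148a, which represses the LDL receptor and ABCA1, miR-128 (log2 fold change 0.68, SE 0.19, limma adjusted p = 0.0116) and miR-342 (0.63, SE 0.24, limma adjusted p = 0.0471). The largest differences in the opposite direction were those of miR-301b, a repressor of ABCA1 (-1.96, SE 0.24, limma adjusted p = 7.33e-05), miR-183 (-1.88, SE 0.39, limma adjusted p = 0.00207) and miR-182 (-1.48, SE 0.32, limma adjusted p = 0.00306). The locus of miR-183 and miR-182 is known as a target of the SREBF2 product. miR-182 had 1581 to 3764 TPM in lactation, against 3657 to 9859 TPM in non-lactating libraries, and miR-183 65.2 to 132 and 151 to 684 TPM. In HP vs LP, 2 of the 23 were DE, where 10.1% of all miRNAs were, and both were higher in the libraries labelled LP. They were miR-144, also an erythroid miRNA, with a log2 fold change of 1.58 (SE 0.63, limma adjusted p = 0.272), and miR-185, a repressor of the SREBF genes (1.12, SE 0.38, limma adjusted p = 0.248). The median of the list was 0.10.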

How the data were processed

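Small RNA was sequenced from mammary biopsies, 12 libraries in 4 groups of 3. The authors trimmed reads with Cutadapt 2.8 and Trimmomatic 0.36, kept 18 to 30 nt, mapped them with Bowtie 1.1.1 (1 mismatch) to ARS-UCD 1.2 and counted miRBase 22.0 miRNAs with miRDeep2 (quantifier). The authors deposited RPM values, which they call TPM, for 426 precursor entries, without a correction for length and rounded to 2 decimals. Groups and replicate numbers came from the sample titles, which match the column names, and 0 columns were left unused. Each of 388 mature miRNAs was represented by its precursor of highest mean. Values were scaled by median-of-ratios size factors of the libraries fitted and put on the log2 scale after adding 1. The paper's test was DESeq2 on counts, so limma 3.58.1 (R 4.3.3, empirical Bayes moderation, mean-variance trend) took its place, with 6 libraries for each phenotype comparison and 12 for the stages. The limma fit was also run on simulated data with the same depth in every library and the same dispersion for every miRNA. These settings are simpler than the real libraries, so the run does not show how the fit behaves on them. Exact permutation tests used scipy 1.17.1 in Python 3.11.15. A value within 0.0055 TPM of a whole multiple of the step counted as on the grid, which held for every value up to 50 TPM.

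Named were the pair, the 5 miRNAs most like each member after group means were removed and the 3 most like it without, fixed lists of sterol-related and cell type miRNAs, and of the sterol list those DE or with the largest stage differences. The members, lists, tests and alternatives were chosen with earlier results of these data known. Alternatives covered scaling, pseudocount, filter, trend, precursors, replicate block, libraries fitted and leaving out each library. Sequences of the miRNAs and RNA-seq of the cows were not used here.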

Additional observations from a re-analysis of the deposited data

How the results depend on the processing

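The stage differences kept their direction and an adjusted p-value under 0.05 under all alternatives run, with log2 fold changes of 2.09 to 3.02 for miR-33b and 1.22 to 2.17 for miR-33a where all libraries were kept, the lowest of each being the scaling to epithelial miRNAs. The difference in the ratio of miR-33a to miR-33b between the stages lay between -0.99 and -0.73 without any 1 library (exact permutation p of 0.00433 to 0.0130) and was -0.90 with 1 added to both values. In HP vs LP neither miRNA passed under any alternative, and leaving out single libraries gave -0.35 to 0.67 for miR-33b, -0.17 to 0.78 for miR-33a and -0.12 to 0.28 for the ratio, with a change of sign without LP replicate 1 (all 3), LP replicate 3 (miR-33b and miR-33a) or HP replicate 3 (the ratio). With 5 added before log2 in place of 1, which lowers changes near that value, the log2 fold changes of LD over HD were 1.02 for miR-33b and 0.47 for miR-33a, and the DE miRNAs numbered 22 for HP vs LP and 7 for HD vs LD. Without size factors 3 miRNAs were DE in HD vs LD (the cause was not tested). Leaving out single libraries gave 24 (without LP replicate 1) to 53 DE miRNAs for HP vs LP, and 6 (without HD replicate 2) to 36 (without LD replicate 1) in HD vs LD, with 8 without LD replicate 2. With a mean of at least 10 TPM required, which left fewer miRNAs to test, 114 passed between the stages.

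As a check for pairing by replicate number, deviations from the group means were correlated between libraries. Between HP and LP, r ranged from -0.256 to 0.009 for the same number and from -0.144 to 0.276 for different numbers. Between HD and LD the ranges were -0.113 to 0.548 and -0.63 to 0.29. There replicates 1 (0.548) and 3 (0.505) were above every pair of different numbers, so these values do not settle whether the numbers link cows of HD and LD. With the replicate number as a block the stage log2 fold changes remained 2.87 (SE 0.31, limma adjusted p = 0.000111) for miR-33b and 1.97 (SE 0.32, limma adjusted p = 0.000898) for miR-33a, 34 miRNAs were DE in HP vs LP, 17 in HD vs LD and 170 passed between the stages, and the block changed no call for the pair. The planned DESeq2 and edgeR tests on reads were not run, since the rounding of the deposited values did not allow whole reads to be recovered to the standard set for a count test. miR-33a in HD rested on 43 to 89 reads per library, the fewest reads behind any group of values of the pair.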

Other observations

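In mean TPM over the 12 libraries miR-33b ranked 171 of 388 and miR-33a 221. Around miR-33b stood miR-224 (42.5 ± 16.4 TPM), miR-455-3p (40.8 ± 22), miR-3432a (39.4 ± 13.9) and miR-455-5p (37.9 ± 15.1; SD, n = 12), of which miR-224 was higher in lactation (log2 fold change 0.85, limma adjusted p = 0.00677) and both arms of miR-455 were lower (-1.32 and -0.70, limma adjusted p = 0.000543 and 0.00746). Around miR-33a stood miR-409a and miR-370, 2 miRNAs of the imprinted DLK1-DIO3 locus, which were lower in lactation (log2 fold changes of -1.04 and -2.13, limma adjusted p = 0.0254 and 0.000357), and miR-2285q and miR-452, which did not pass (limma adjusted p = 0.266 and 0.734).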
